A study of Mus musculus with 4 samples.

Results

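The 9 genes described here encode the growth factor VEGF-A, its receptors, the angiopoietin receptor and marker proteins of endothelial cells, which line blood vessels: *Vegfa*, *Flt1*, *Kdr*, *Nrp1*, *Tek*, *Pecam1*, *Emcn*, *Eng* and *Plvap*. They were chosen by name, and all 9 were among the 19632 gene rows of a table of average nuclear RNA levels. That table holds 23 clusters of nuclei from the kidney cortex of 4 male mice of mixed strain. Each condition was 1 mouse. The Control mouse carried only the TRE-hKLF6 transgene, a human *KLF6* gene that needs a transactivator to be switched on, and received no aristolochic acid I (AAI), a plant toxin that damages DNA in proximal tubules. The Control AAI mouse had the same genotype and received AAI. The hKLF6OE mouse carried both CAG-rtTA, a transactivator driven by a promoter active in most cell types, and TRE-hKLF6, with no AAI. The hKLF6OE AAI mouse carried both transgenes and received AAI. TRE-hKLF6 was thus present in all 4 mice. Per the study's methods, both genotypes were fed doxycycline at 200 mg/kg of diet, which activates the transactivator, for a week before AAI at 2 mg/kg, and kidneys were taken 24 hours after the injection. An age for these mice is not given in the sources used here.

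VEGF-A is secreted in the kidney mainly by podocytes, the epithelial cells that wrap glomerular capillaries, and by tubules, and it acts on the endothelium beside them. KDR is its main signalling receptor, FLT1 binds VEGF-A tightly but signals weakly and can act as a decoy, and neuropilin-1, the product of *Nrp1*, is a co-receptor. TEK, also called Tie2, is the receptor for angiopoietins, which stabilise vessels. PECAM1 (CD31) joins endothelial cells to each other, endomucin (*Emcn*) is a surface sialomucin, endoglin (*Eng*) is a co-receptor for BMP and TGF-β ligands, and PLVAP forms the diaphragms of fenestrae.

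With 1 mouse per condition no test was made, and an effect of treatment or genotype cannot be told apart from a difference between single mice. A gene's value is the number of counts it had per 10000 in a nucleus, as an average for each cluster and mouse. Differences between mice are given on the log2(value + 1) scale, which understates the change of low genes. The term "called" is used for a gene whose larger value was at least 0.5 in each of 2 pairs of mice and that differed by at least 0.2 in the same direction in both pairs. The 2 pairs of a comparison share no mouse, but the AAI and hKLF6OE comparisons use the same 4 mice. The table holds neither numbers of nuclei nor depth, so no interval can be set on a value.

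The start regions of the 3 receptor tyrosine kinases *Flt1*, *Kdr* and *Tek* are shown because these receptors share the same leading cluster but differed in their values with AAI. Each is the 150 bases that end just before the RefSeq start on build GRCm38.p6, 5′ to 3′ on the gene's strand, with the letters GGAA and their reverse complement TTCC in capitals. GGAA is the core that ETS factors, among them the endothelial factors ERG and FLI1, bind. *Flt1* is on the minus strand at chr5:147726012-147726161, *Kdr* on the minus strand at chr5:75978456-75978605 and *Tek* on the plus strand at chr4:94739139-94739288.
Flt1: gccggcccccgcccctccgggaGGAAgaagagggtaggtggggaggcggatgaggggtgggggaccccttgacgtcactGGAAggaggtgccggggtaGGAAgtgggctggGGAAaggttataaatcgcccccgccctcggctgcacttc
Kdr: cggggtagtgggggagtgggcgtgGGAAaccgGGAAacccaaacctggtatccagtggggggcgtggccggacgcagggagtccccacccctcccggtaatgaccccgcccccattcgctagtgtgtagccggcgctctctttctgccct
Tek: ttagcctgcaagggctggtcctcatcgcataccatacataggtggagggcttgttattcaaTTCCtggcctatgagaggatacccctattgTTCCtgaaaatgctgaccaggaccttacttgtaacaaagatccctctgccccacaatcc
On both strands together, *Flt1* held 4 matches, and *Kdr* and *Tek* held 2 each. The core is common: 80.8% of the 32851 windows of the same length held at least 1 match, with a median of 2, and 10.9% held 4 or more. GC content was 68.0% for *Flt1*, 67.3% for *Kdr* and 48.7% for *Tek*, beside a median of 54.0% over all windows. A match to these letters is a description and not a site.

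Of the 9 genes, 8 were highest in the same cluster. All but *Vegfa* had their highest mean in EC-2, an endothelial cluster, and for 7 of these, all but *Nrp1*, the lowest mouse in EC-2 lay above the highest mouse in each of the other 22 clusters. In EC-2, *Flt1* was 22.2 in Control, 23.3 in Control AAI, 23.001 in hKLF6OE and 22.4 in hKLF6OE AAI. *Emcn* was 19.8, 20.1, 18.7 and 16.2 in the same order of mice. *Tek* was 11.02, 13.98, 12.1 and 14.5. *Flt1* was therefore the steadiest of these genes in EC-2, with an SD over mice of 0.512 around a mean of 22.7, while *Tek* was higher in both mice with AAI.

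*Nrp1* is described below, and the remaining members had lower values in EC-2. *Eng* was 6.62, 6.08, 7.68 and 5.84, *Pecam1* was 5.36, 6.81, 6.09 and 5.07, and *Plvap* was 4.36, 4.92, 5.60 and 4.44. *Kdr* was 3.61, 2.05, 4.67 and 2.55, and *Vegfa* was 1.30, 1.78, 0.920 and 1.504. These are nuclear counts that include introns, so long genes collect more of them. Per kilobase of genomic span (GENCODE vM21, GRCm38), *Plvap*, which spans 13.99 kb at chr8:71497765-71511752, had the highest mean level in EC-2 at 0.345. It was followed by *Emcn* at 0.205, *Eng* at 0.182, *Flt1* at 0.138 and *Tek* at 0.0951. *Nrp1* at 0.0896, *Vegfa* at 0.0895, *Kdr* at 0.0706 and *Pecam1* at 0.0605 came last. On this scale per length the mice of *Plvap*, and those of *Flt1*, did not overlap with those of their neighbours in the order, whereas *Emcn* and *Eng* overlapped, as did each neighbouring pair from *Tek* down. *Flt1*, with a span of 164.4 kb at chr5:147561604-147726011, was the longest of the 9 genes.

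Below EC-2 the order was alike for the endothelial genes. The Macrophage cluster came second for *Flt1*, *Kdr*, *Tek*, *Pecam1*, *Emcn*, *Eng* and *Plvap*, and EC-1 and the mesangial cluster MC came next, in either order. *Flt1* was 6.19, 10.7, 4.65 and 5.17 in Macrophage, 3.70, 4.07, 3.79 and 3.66 in EC-1, and 2.01, 3.45, 3.23 and 3.11 in MC, and these 3 ranges did not overlap. For *Kdr*, *Tek*, *Pecam1* and *Plvap* every neighbouring pair below EC-2 overlapped. In the other 19 clusters the mean over mice of *Flt1*, *Kdr*, *Tek*, *Pecam1*, *Emcn*, *Eng* and *Plvap* stayed below 1, from 0.0316 for *Kdr* in IC-B-2 to 0.951 for *Tek* in LH-AL-3.

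**Figure D1:**
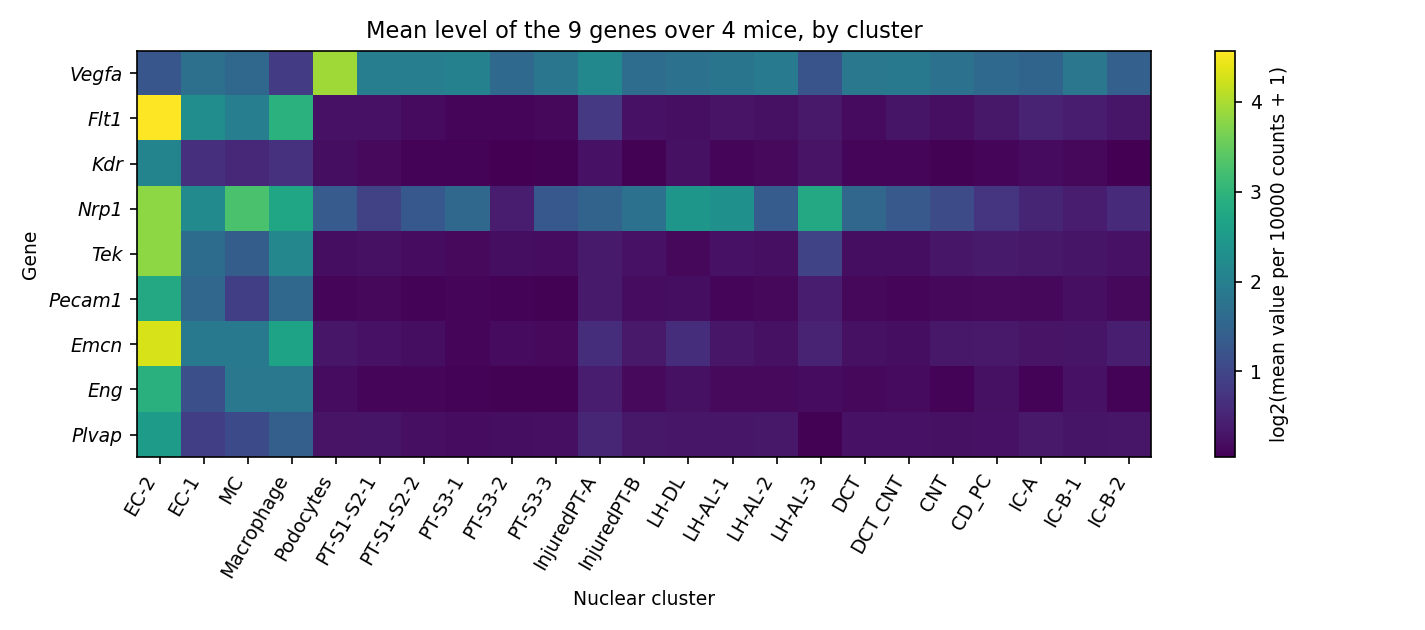
Mean level over 4 mice of the 9 genes (rows) in the 23 clusters (columns), coloured by log2(mean value per 10000 counts + 1). Apart from *Vegfa*, which was highest in Podocytes at 14.3, and *Nrp1*, which was spread over many clusters, the genes were high in EC-2 and lower in EC-1, MC and Macrophage.

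The names of the clusters are those of the study, and some were checked against marker lists. Their match to the cluster numbers is less sure for EC-2, MC, Podocytes and Macrophage, which have no list in the study's marker table. EC-2 held the endothelial identity list, 18 genes that include *Cdh5*, *Erg* and *Fli1*, at a summed level of 88.3 to 119.3 over the mice, beside 3.15 to 3.63 in Podocytes. EC-1 held the same list at 25.7 to 40.0, but it held 6 proximal tubule transport genes at 69.3 to 90.7, close to the 94.6 to 119.3 that the 5 normal proximal tubule clusters averaged and above the 31.5 to 38.8 of EC-2. The name EC-1 is therefore borne out only in part. In the Macrophage cluster the macrophage and leukocyte list summed to 24.9 to 27.9, the endothelial identity list to 25.4 to 47.4 and the proximal tubule list to 36.5 to 46.0 over the mice. In MC the mesangial and stromal list summed to 6.01 to 8.05, above the 1.07 to 1.79 of EC-2. MC also held the endothelial identity list at 30.4 to 37.8 and the proximal tubule list at 43.15 to 50.6, so its name too is borne out only in part. For *Flt1*, *Kdr*, *Tek*, *Pecam1*, *Emcn*, *Eng* and *Plvap*, the ratio of the mean level in EC-1 to that in EC-2 ran from 0.143 for *Emcn* to 0.327 for *Pecam1*, with a median of 0.175. Whether nuclei of several types or free RNA account for these shares was not tested. Of the markers of other vessels, the glomerular endothelial list (5 of 6 genes in the table) summed to 4.32 to 5.63 in EC-2 and 3.13 to 5.92 in EC-1. *Ehd3* was higher in EC-2 (a mean of 1.81 against 0.333), and *Sema5a* and *Lpl* were higher in EC-1 (1.67 against 0.669 and 2.11 against 1.22). However, *Sema5a* was highest in Podocytes, at a mean of 12.96, and *Lpl* in PT-S3-3, at 3.58. The list also summed to 15.3 to 18.4 in Podocytes and 1.905 to 6.055 in the normal proximal tubule mean, so it does not single out endothelium here. The arterial list summed to 3.32 to 4.33 in EC-2 and 1.07 to 1.69 in EC-1. In MC it summed to 3.67 to 5.35, so this list did not set EC-2 apart from MC. The lymphatic list (3 of 4 genes in the table) was low in both, at most 0.477 in EC-2 and 0.356 in EC-1.

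Within each mouse, 8 of the 9 genes were higher in EC-2 than in EC-1, and *Vegfa* was higher in EC-2 in 1 of 4 mice. The difference on the log2(value + 1) scale, EC-2 minus EC-1, ran over the mice from 2.31 to 2.59 for *Emcn*, from 2.26 to 2.33 for *Flt1* and from 1.95 to 2.26 for *Tek*. It ran from 1.63 to 1.92 for *Eng*, 1.53 to 1.82 for *Plvap*, 1.46 to 1.78 for *Nrp1*, 0.98 to 1.75 for *Kdr* and 0.92 to 1.58 for *Pecam1*. The clusters were formed from these same nuclei's RNA, so these differences are descriptions. *Flt1* had the narrowest range of the 9 genes, and *Kdr* the widest among those higher in EC-2 throughout. As a share of the level summed over the 23 clusters, EC-1 and EC-2 together held 59.3% to 68.3% of *Flt1*, 60.01% to 67.5% of *Emcn* and 57.2% to 67.0% of *Tek*. They held 21.5% to 31.9% of *Nrp1* and 5.36% to 6.33% of *Vegfa*. This share counts every cluster once and does not weigh clusters by their number of nuclei.

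**Figure D2:**
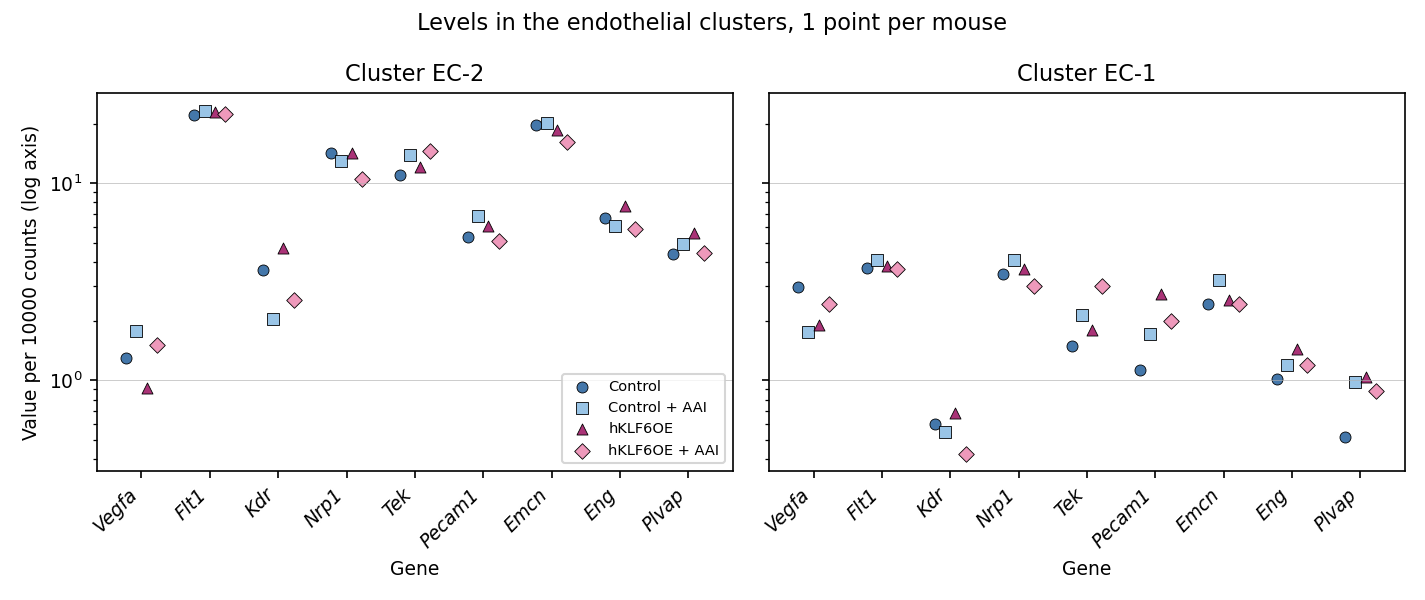
Value per 10000 counts (log axis) of the 9 genes in clusters EC-2 (left) and EC-1 (right), with 1 point per mouse. In EC-2 both AAI mice lie below both mice without AAI for *Kdr* and above them for *Tek*, while the 4 values of *Flt1* lie between 22.2 and 23.3.

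After AAI, *Kdr* was lower and *Tek* higher in EC-2 in both genotypes, while *Flt1* differed by less than 0.2. For *Kdr*, the main VEGF-A receptor, the values without AAI, 3.61 in Control and 4.67 in hKLF6OE, did not overlap with those after AAI, 2.05 and 2.55. AAI minus no AAI was -0.595 in control mice and -0.676 in hKLF6OE mice. *Tek*, the angiopoietin receptor, was 11.02 and 12.1 without AAI and 13.98 and 14.5 with it, with differences of 0.32 and 0.25. *Vegfa* was also called higher in EC-2, at 1.30 and 0.920 without AAI against 1.78 and 1.504 with it, and differences of 0.28 and 0.38. *Flt1*, the decoy receptor, differed by 0.068 in control mice and by -0.034 in hKLF6OE mice.

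Of the 9 genes in EC-2, all of which passed the minimum value, 2 were thus called higher and 1 lower with AAI. Over all 4448 genes that passed, 11.8% were called higher and 8.05% lower. The median difference of the 9 genes was 0.068 in control mice and -0.22 in hKLF6OE mice, and that of all passing genes was 0.042 and 0.055. *Nrp1* (14.3 and 14.2 without AAI, 12.9 and 10.5 with it) and *Eng* (6.62 and 7.68, then 6.08 and 5.84) were lower with AAI in both genotypes but by less than 0.2 in control mice. *Pecam1*, *Emcn* and *Plvap* had differences of opposite sign in the 2 genotypes. They were 0.30 and -0.22 for *Pecam1*, 0.022 and -0.20 for *Emcn*, and 0.14 and -0.28 for *Plvap*, in control and hKLF6OE mice respectively. The junction and surface markers thus had no direction with AAI that both genotypes shared.

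In EC-1, *Tek* was the only member called. It was 1.503 in Control, 2.15 in Control AAI, 1.80 in hKLF6OE and 3.02 in hKLF6OE AAI, so both AAI mice lay above both mice without AAI, with differences of 0.33 and 0.52. In this cluster 7.43% of 4210 passing genes were called higher and 5.37% lower. *Kdr* was 0.602, 0.548, 0.684 and 0.426 there, with differences of -0.049 and -0.24, so its lower value after AAI was called in EC-2 but not in EC-1. *Flt1* differed by 0.11 and -0.038. Across the 23 clusters, *Tek* passed the minimum in 5 and was called higher with AAI in EC-1, EC-2, MC and Macrophage, and lower in LH-AL-3. In MC, *Tek* went from 0.419 to 1.33 in control mice and from 2.00 to 2.66 in hKLF6OE mice. In Macrophage it went from 2.09 to 4.73 and from 2.78 to 4.11. These 4 clusters all held endothelial genes, and whether that RNA has 1 source was not tested. *Kdr* passed the minimum in 3 clusters and was called lower in EC-2 and in Macrophage. Over the mice, 38.3% to 63.4% of all genes were at 0 in Macrophage and 60.5% to 63.4% in LH-AL-3. That range was 29.9% to 34.5% in EC-2 and 36.4% to 40.1% in MC, so the calls in Macrophage and LH-AL-3 rest on sparser columns. The share of all genes called was not computed for MC, Macrophage or LH-AL-3.

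**Figure D3:**
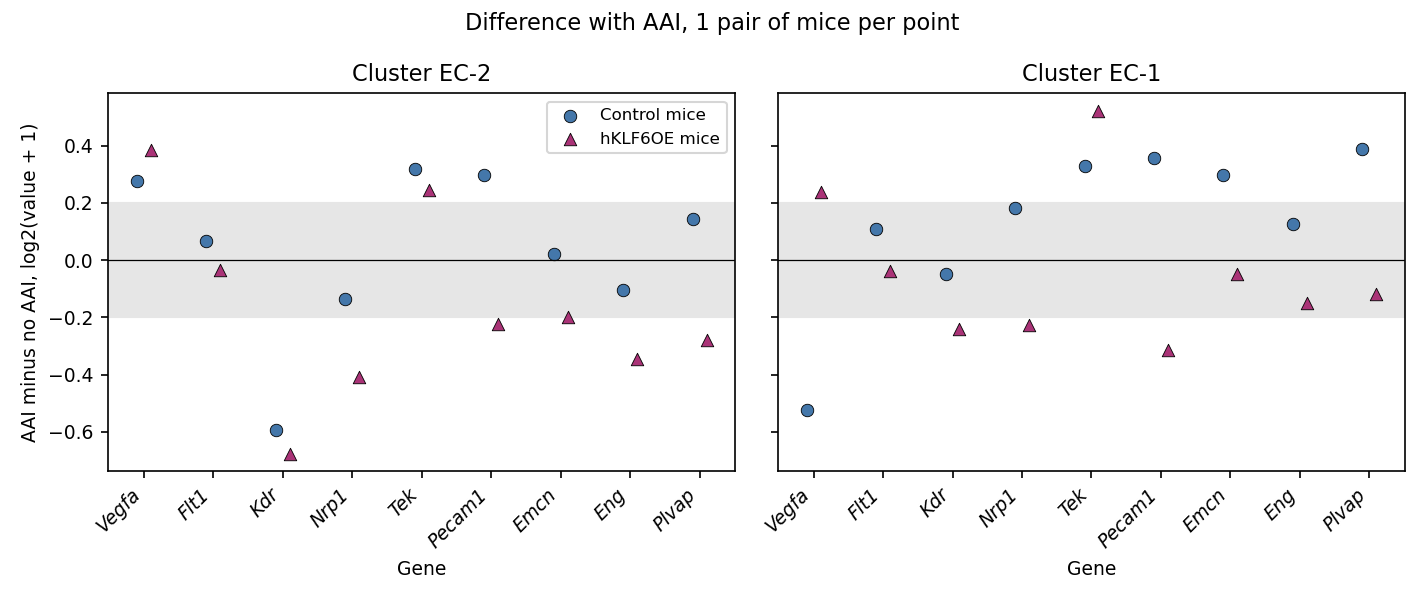
Difference with AAI, AAI minus no AAI on the log2(value + 1) scale, for the 9 genes in EC-2 (left) and EC-1 (right). Circles are the pair of control mice, triangles the pair of hKLF6OE mice and the grey band spans -0.2 to 0.2; *Tek* is above the band in both pairs in both clusters, and *Kdr* is below it in both pairs in EC-2 alone.

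The table lists mouse *Klf6*. In EC-2, *Klf6* was 0.466 in Control, 1.27 in Control AAI, 0.491 in hKLF6OE and 0.809 in hKLF6OE AAI, so it was higher with AAI in both genotypes. The transgene is the human gene, and the table has no row of its own for it, so its expression could not be checked here. Whether reads from the transgene were counted to mouse *Klf6* is not given in the sources used here, so the *Klf6* values of the hKLF6OE mice may include some. Between genotypes, *Kdr* was the 1 member called in EC-2. It was higher in hKLF6OE than in control mice both without AAI (4.67 against 3.61, a difference of 0.30) and with AAI (2.55 against 2.05, a difference of 0.22). Over the 4330 genes that passed in EC-2, 4.87% were called higher and 6.07% lower in hKLF6OE mice. *Flt1* differed by 0.049 without AAI and by -0.054 with AAI, and *Tek* by 0.12 and 0.051. In EC-1 no member was called, against 1.16% of 4054 passing genes called higher and 2.29% lower. *Pecam1* had the largest difference there, 0.81 without AAI (2.75 against 1.13), but with AAI it was 0.14 (2.01 against 1.73).

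*Vegfa*, the ligand, was highest in Podocytes, where it was 17.6 in Control, 15.7 in Control AAI, 8.66 in hKLF6OE and 15.1 in hKLF6OE AAI. Its lowest podocyte value, that of the hKLF6OE mouse without AAI, was above all values in the other 22 clusters. The mean of 14.3 was 4.11 times that of the next cluster, InjuredPT-A. Below Podocytes each neighbouring pair of clusters overlapped, from InjuredPT-A at a mean of 3.47 down to Macrophage at 0.785, and *Vegfa* had a mean of at least 0.5 in all 23 clusters. Per kilobase of its 15.4 kb span (chr17:46016993-46032369, minus strand) it was 0.927 in Podocytes and 0.0895 in EC-2. *Vegfa* was thus found in every cluster, and in EC-2, where *Flt1* and *Kdr* were highest, it was lower than in Podocytes. Per kilobase its mean in EC-2 was near those of *Nrp1* at 0.0896 and *Kdr* at 0.0706, and the mice of these genes overlapped.

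**Figure D4:**
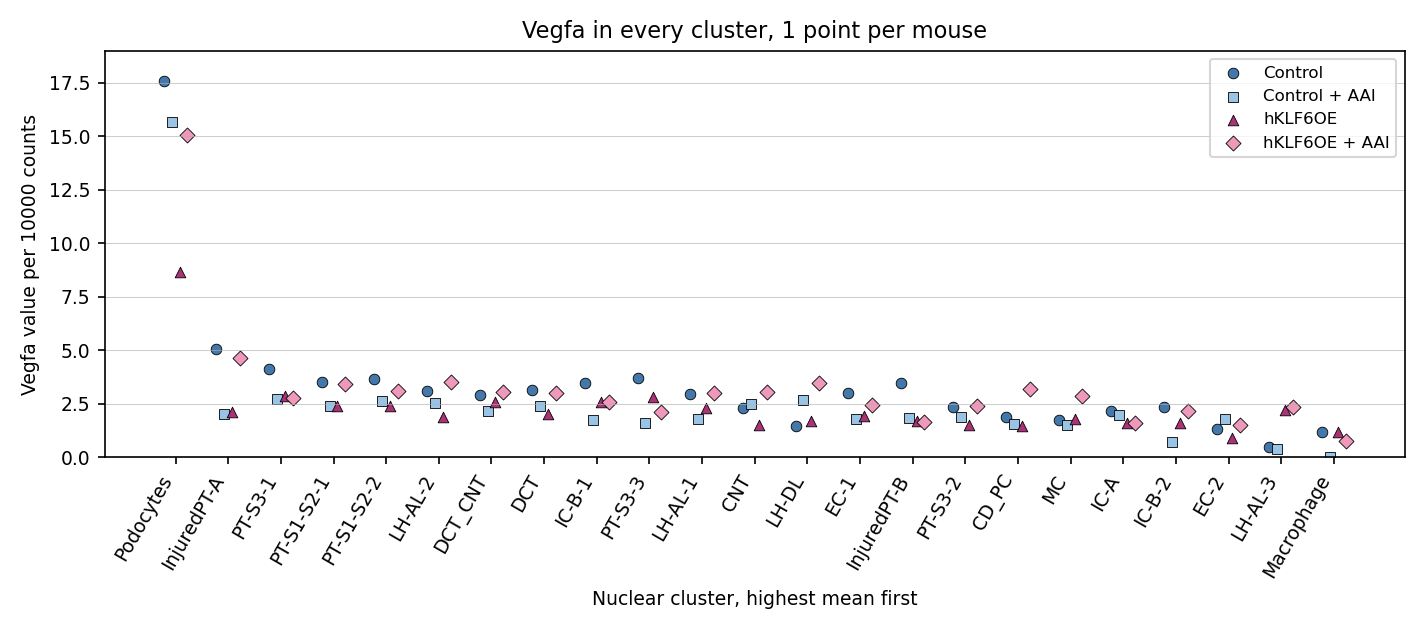
*Vegfa* value per 10000 counts in each of the 23 clusters, ordered by the mean over mice, with 1 point per mouse. The 4 podocyte values lie between 8.66 and 17.6, above every other value, and in many tubule clusters the Control and hKLF6OE AAI mice lie above the other two mice.

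With AAI, *Vegfa* went in opposite directions in the 2 genotypes in many clusters, but not in all. Averaged over the 5 normal proximal tubule clusters it was 3.46 in Control and 2.25 in Control AAI, a difference of -0.46, and 2.40 in hKLF6OE and 2.75 in hKLF6OE AAI, a difference of 0.14. Of the 22 clusters in which *Vegfa* passed the minimum, 15 were lower by at least 0.2 in control mice and 15 were higher by at least 0.2 in hKLF6OE mice, and 9 were both. In Podocytes the differences were -0.16 and 0.73. It was called higher in 2 clusters, EC-2 and LH-DL, and lower in PT-S3-3 and Macrophage. Of these, LH-DL and Macrophage are sparse, with 42.5% to 60.7% and 38.3% to 63.4% of all genes at 0 over the mice. The share of all genes called was not computed for LH-DL, PT-S3-3 or Macrophage. Clusters of 1 mouse share a library, so they are not separate evidence, and AAI cannot be told apart from single mice here. Between genotypes the same 4 values gave, without AAI, 18 of 23 clusters lower by at least 0.2 in hKLF6OE and, with AAI, 17 of 23 higher.

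No member was called with AAI in Podocytes, where 2 of the 9, *Vegfa* and *Nrp1*, passed the minimum in both pairs and where 9.60% of 3573 passing genes were called higher and 9.43% lower. In the normal proximal tubule mean the same 2 genes passed and neither was called, against 7.66% of 3892 genes called higher and 5.83% lower. The other 7 members were at 0.286 or less there in every mouse.

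*Nrp1*, the co-receptor, was the most widely spread receptor. It was 14.3, 12.9, 14.2 and 10.5 in EC-2 and 10.7, 7.97, 5.76 and 10.2 in MC, and these ranges overlapped. Its mean was at least 0.5 in 20 clusters, and no neighbouring pair in its order was apart. LH-AL-3 came next with 2.54, 13.6, 3.54 and 3.61, of which the Control AAI mouse alone was high, in a cluster where 60.5% to 63.4% of all genes were at 0. In the normal proximal tubule mean *Nrp1* was 1.15, 1.74, 0.924 and 1.05, with AAI differences of 0.35 and 0.094. By segment, it was called higher with AAI in both PT-S1-S2 clusters. In PT-S1-S2-1 it went from 0.593 to 1.55 in control mice and from 0.457 to 0.943 in hKLF6OE mice, and in PT-S1-S2-2 from 1.20 to 2.38 and from 0.818 to 1.45. In none of the 3 PT-S3 clusters was it called. The share of all genes called was not computed for single proximal tubule clusters, so whether this contrast between segments is particular to *Nrp1* was not tested. *Nrp1* differed from the receptor kinases in that tubule clusters held much of its level.

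The 2 injured proximal tubule clusters were compared with the normal proximal tubule mean within each AAI mouse. In InjuredPT-B, *Nrp1* was higher, at 3.04 against 1.74 in Control AAI and 2.02 against 1.05 in hKLF6OE AAI, with differences of 0.56 in both. *Vegfa* was lower there, at 1.82 against 2.25 and 1.62 against 2.75, with differences of -0.20 and -0.51. These were 2 of the 2 members that passed, where 23.4% of all 4148 passing genes were called higher and 13.1% lower, since the clusters differ in many genes. In InjuredPT-A neither gene was called, against 43.3% of 5008 genes called higher and 27.0% lower. There *Vegfa* was 2.02 against 2.25 in Control AAI but 4.66 against 2.75 in hKLF6OE AAI, and *Nrp1* was 1.82 against 1.74 and 1.00 against 1.05. In mice without AAI, InjuredPT-A had 62.6% and 40.8% of genes at 0 in Control and hKLF6OE, beside 22.5% and 22.2% in the AAI mice. *Nrp1* in InjuredPT-A was called lower with AAI, at 2.96 and 1.45 without AAI and 1.82 and 1.00 with it, and this rests on those sparse columns.

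The wider pathways were taken from lists. The VEGF and angiopoietin list held 23 other ligands, receptors and signalling genes, 22 of them in the table. In EC-2, 11 passed the minimum, and 1 was called higher with AAI and none lower, where 11.8% and 8.05% of all passing genes were. That gene was *Ptprb*, a phosphatase that acts on TEK, at 10.7 and 12.4 without AAI against 13.1 and 14.8 with it, with differences of 0.27 and 0.24. *Tie1*, the partner receptor of TEK, was 1.25 in both mice without AAI and 0.925 and 1.16 with it. *Nrp2*, the second neuropilin, was 4.45 and 5.41 without AAI and 3.96 and 4.29 with it, and was not called. The list's median difference was -0.065 and -0.057. In hKLF6OE against control, *Angpt1*, an angiopoietin that activates TEK, was called lower in EC-2, at 0.636 against 0.918 without AAI and 0.810 against 1.30 with it. *Angpt1* was the 1 gene called of 11 that passed, where 4.87% of all passing genes were called higher and 6.07% lower. In EC-1, *Sema3c* was called higher and *Plxna4* lower with AAI among 7 that passed, beside 7.43% and 5.37% of all passing genes. Between genotypes in EC-1, *Ptprb* and *Plxna4* were called higher in hKLF6OE mice among 7 that passed, beside 1.16% of all passing genes. *Ptprb* was thus called, like *Tek*, higher with AAI in EC-2.

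Of the 12 genes for BMP and TGF-β receptors and their signalling around endoglin, 11 passed in EC-2, and 5 were called higher with AAI and none lower, beside 11.8% and 8.05% of all passing genes. *Bmpr2*, a BMP receptor, was 2.72 and 3.79 without AAI and 4.99 and 5.52 with it, with differences of 0.69 and 0.44. *Tgfbr3*, a co-receptor like endoglin, was 2.34 and 1.63 without AAI and 3.98 and 3.40 with it, with differences of 0.58 and 0.74. *Smad1*, which carries BMP signals, went from 0.973 to 1.64 and from 0.841 to 2.11, and *Tgfbr2* and the inhibitor *Smad6* were also called higher. For each of these 5 genes both AAI mice lay above both mice without AAI. The BMP target genes *Id1* and *Id3* were not called, with differences of -0.051 and -0.48 for *Id1* and 0.003 and -0.50 for *Id3*. Elsewhere *Id1* was called higher with AAI, in EC-1 by 0.21 and 0.27 and in the normal proximal tubule mean by 0.43 and 0.45. The list's median difference was 0.27 in control mice and -0.084 in hKLF6OE mice. Of the other 6 genes that passed, 5 had a positive difference in control mice and none did in hKLF6OE mice. *Eng* itself was not called in any cluster with AAI.

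**Figure D5:**
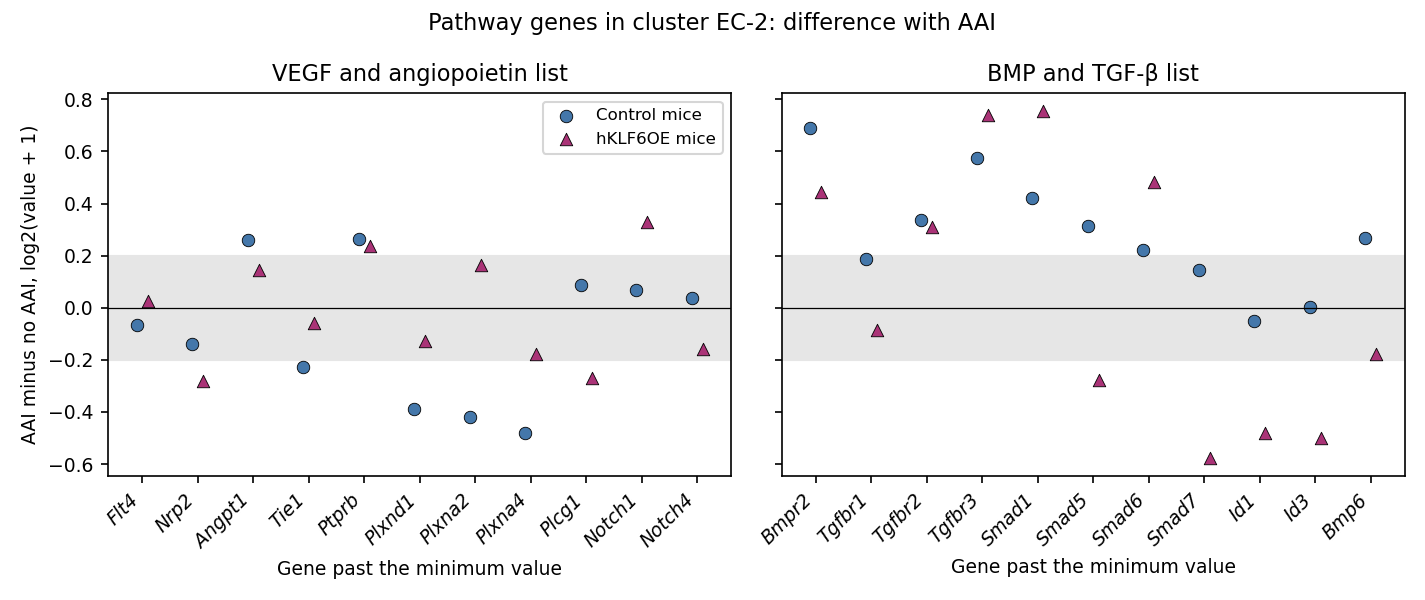
Difference with AAI in EC-2 on the log2(value + 1) scale for the 11 genes of the VEGF and angiopoietin list (left) and the 11 of the BMP and TGF-β list (right) that passed the minimum value. Circles are control mice, triangles hKLF6OE mice and the grey band spans -0.2 to 0.2; *Bmpr2*, *Tgfbr2*, *Tgfbr3*, *Smad1* and *Smad6* lie above the band in both pairs, and on the left *Ptprb* alone does.

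Of the 18 endothelial identity genes, 14 passed in EC-2 and 1, *Ldb2*, a cofactor of LIM proteins, was called higher with AAI, at 21.9 and 21.6 without AAI against 34.1 and 30.8 with it, beside 11.8% of all passing genes called higher. In EC-1, 8 passed and 6 were called higher, beside 7.43% of all passing genes. By the smaller of their 2 differences they were led by *Ldb2* (4.17 to 6.12 and 4.54 to 6.91), *Adgrf5* (0.564 to 0.960 and 0.495 to 1.39) and *Adgrl4* (2.14 to 3.48 and 2.24 to 2.99), with the latter 2 encoding adhesion receptors. *Adgrf5* had its highest mean in IC-A, at 16.2, beside 4.35 in EC-2 and 0.852 in EC-1. *Tek* in EC-1 was thus higher with AAI beside 6 of the 8 genes of this list that passed, and the identity list's sum there was 25.7 and 26.5 without AAI and 32.7 and 40.0 with it. *Mecom*, 1 of the 6, made up 8.66 and 9.09 of that sum without AAI and 10.7 and 13.9 with it, and its highest cluster was DCT. Of the proximal tubule list in EC-1, *Slc5a12* (differences of 0.79 and 0.28) and *Slc13a1* (0.85 and 0.97) were called higher with AAI and *Slc34a1* lower, and their part in these differences was not tested. Fewer cells of a type and less RNA per cell cannot be told apart in such a cluster mean. In hKLF6OE mice the ETS factors *Erg* (1.78 to 1.11 without AAI and 2.07 to 1.64 with it) and *Ets1* (2.54 to 2.01 and 2.93 to 2.07) were called lower in EC-2, and *Fli1* was not called. *Erg* and *Ets1* were 2 of the 14 identity genes that passed in this comparison, where 6.07% of all passing genes were called lower. Of the 7 activation genes in the table, 3 passed in EC-2 and none was called. None of the 7 passed in EC-1.

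Among 13 hypoxia-inducible factor genes and targets, a pathway known to induce *Vegfa*, 6 passed in EC-2, and 1 was called higher and 2 lower with AAI, beside 11.8% and 8.05% of all passing genes. *Ndrg1*, a stress-response gene, was called lower with AAI, at 9.97 and 9.88 without AAI and 3.91 and 3.15 with it. Its highest cluster mean was 30.2, in PT-S1-S2-1. In the normal proximal tubule mean it was 31.6 and 28.7 without AAI and 13.9 and 10.9 with it, and the part of tubule RNA in the EC-2 values was not tested. *Egln3*, an oxygen-sensing hydroxylase, was called lower too, at 1.63 and 0.861 then 0.657 and 0.379, and *Arnt*, the partner of the hypoxia-inducible factors, was called higher. *Ndrg1* was called lower with AAI in EC-1, Podocytes and the normal proximal tubule mean as well. *Vegfa* was not called with AAI in any of these 3.

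The genes most like each member were found by Pearson's r of log2(mean over 4 mice + 1) over the 23 clusters, among 8112 genes with a highest cluster mean of at least 0.5. For *Vegfa* they were *Rhpn1* (r = 0.869), *Rab3b* (r = 0.853) and *Gm3772* (r = 0.846), all highest in Podocytes. *Flt1* was followed by *Plpp1*, *Emcn* and *Adgrl4* (r = 0.994, 0.993 and 0.993). For *Kdr* they were *Cd38*, *Esm1* and *Sema3d* (r = 0.991, 0.987 and 0.986), and for *Tek* *Adgrl4*, *Pecam1* and *Rasgrp3* (r = 0.991, 0.986 and 0.985). *Pecam1* came closest to *Adgrl4*, *Flt1* and *Ptprb*, *Emcn* to *Plpp1*, *Adgrl4* and *Calcrl*, *Eng* to *Gm26510*, *Fgd5* and *Tnxb*, and *Plvap* to *Ehd3*, *Arap3* and *Rasip1*. *Nrp1* had the weakest likeness after *Vegfa*, with *Fbxl7* at r = 0.883. Among the members, r between *Vegfa* and each of the others was negative, from -0.43 with *Tek* to -0.29 with *Nrp1*. The clusters share libraries and are few, and EC-2 sets most of these values, so r is a description.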

How the data were processed

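Nuclei from kidney cortex were profiled by single nucleus RNA sequencing in 4 mice, 1 per condition. Per the labels and the study's methods, the authors counted reads against a pre-mRNA reference of mm10 with Cell Ranger 3.1.0 and clustered nuclei with Seurat 4.3, with all libraries prepared together and sequenced on 1 lane. How doublets were treated is not given in the sources used here. The deposited signal values are average normalized counts per gene, cluster and mouse; each of the 92 columns summed to 10000. Cluster numbers were given the study's names by the order of its marker table, which is less sure for clusters without a list there, EC-2, MC, Podocytes and Macrophage among them.

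From these values 23 rows with date-like names were left out, which left 19609 genes. Differences were taken on log2(value + 1), with a minimum of 0.5 for the larger value of a pair and a threshold of 0.2 in both pairs. Genes named were the 9 members, 3 most like each, and, from each list, genes called in both pairs in EC-1 or EC-2, led by the smaller difference; *Klf6*, *Tie1*, *Nrp2*, *Ehd3*, *Sema5a*, *Lpl*, *Mecom*, *Slc5a12*, *Slc13a1*, *Slc34a1*, *Fli1*, *Id1* and *Id3* were named outside this rule, after their values were seen. The members and lists were chosen with earlier results of these data known. The calling step was tested on simulated data. Alternatives were another pseudocount, minimum, threshold and centring. Python 3.11.15, pandas 2.3.3 and numpy 2.4.6 were used. Genes came from GENCODE vM21 and start regions from RefSeq, which held 7 of the 9 members.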

Additional observations from a re-analysis of the deposited data

Results flagged for a closer look

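The results below stood out because the AAI difference was at least 0.2 in opposite directions in control and hKLF6OE mice in a cluster or mean that was compared. The difference between genotypes was not tested, since each is 1 pair of mice. *Vegfa* in EC-1 had AAI differences of -0.52 in control mice and 0.24 in hKLF6OE mice, so the control difference minus the hKLF6OE difference was -0.76. *Pecam1* in EC-1 had 0.36 and -0.31, which is 0.67 apart. *Pecam1* in EC-2 had 0.30 and -0.22, which is 0.52 apart.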

How the results depend on the processing

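No paired analysis was possible because each group held 1 mouse and the labels give no replicate numbers, and for the same reason no mouse could be left out. With a threshold of 0.5, the number of members called with AAI went from 3 to 1 (*Kdr*) in EC-2 and from 1 to 0 in EC-1, from 1 to 0 between genotypes in EC-2, and from 2 to 1 (*Nrp1*) in InjuredPT-B. With a threshold of 1, all 4 of these counts were 0. With a pseudocount of 0.1, the members called between genotypes went from 1 to 2 in EC-2 (*Vegfa* lower, beside *Kdr*) and from 0 to 2 in EC-1 (*Tek* and *Pecam1* higher). *Vegfa* in the normal proximal tubule mean of hKLF6OE mice, 0.14 with AAI, was 0.0052 in the PT-S3 clusters alone and 0.32 in the PT-S1-S2 clusters alone. Of the 27 genes named as most like a member, 13 were named on linear values and 9 over all 92 columns. With a minimum of 2 *Vegfa* was no longer called in EC-2. After centring on the median of all passing genes, *Tek* was no longer called higher with AAI in EC-2, which left *Vegfa* and *Kdr*. These EC-2 counts are among the 43 recomputed values that stayed within 1.5 times their main value, although the genes called changed. Those 43 include counts that were 0 and stayed 0, and 14 other recomputed values moved further. No value has an error, since the table holds neither nuclei nor depth.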
